A study of Homo sapiens with 3 samples.

Results

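The BCR-ABL1 segments of 22q11 and 9q34 are the stretches of chromosomes 22 and 9 around the join of the Philadelphia translocation. Their members were 2483 of the 377858 capture targets (0.657%) deposited for a branchpoint survey of K562 cells. A target was a member if it lay fully inside 17 to 25 Mb of chromosome 22 or 133 to 134.5 Mb of chromosome 9 (hg19), which gave 2018 members on 22q11 and 465 on 9q34. The segments were chosen by the deposited score of their targets, with earlier results of these data known, so every score is given here as a description and no test was run.

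K562 is an established human leukaemia cell line, and 3 biological replicate libraries of it form the only group, with no treated or control group beside it. The study enriched ribosome-depleted total RNA for the ends of introns, where branchpoints are found. The target list is common to the 3 libraries and holds no value per library, so there is no replicate error, and the depth behind a score is unknown. K562 is 1 line, and nothing in the list checks its identity or the copy number of any segment.

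A branchpoint is the intron base to which the cut 5′ end of the intron is joined during splicing, and it lies close to the 3′ end of the intron. In the Philadelphia chromosome the first part of BCR, a multi-domain signalling gene, is joined to most of ABL1, which encodes a tyrosine kinase, and the fused kinase is permanently active. K562 cells are known to carry extra copies of this fusion together with flanking pieces of both chromosomes, and a join of NUP214, a nuclear pore gene, to XKR3 has also been described in them.

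In the K562 fusion transcript the last base of BCR exon 14 is followed by the first base of ABL1 exon 2. The 60 bases of each exon that meet at this join are shown because intron ends of both genes are described below. The list holds targets beside ABL1 exon 2 but none at the intron ends that flank BCR exon 14. They come from the GENCODE 29 transcripts ENST00000305877.12 and ENST00000318560.5 and are written in the sense of the transcript, with no base in capitals.

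BCR exon 14, last 60 of 75 bases: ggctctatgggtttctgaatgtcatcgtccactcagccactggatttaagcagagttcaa

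ABL1 exon 2, first 60 of 174 bases: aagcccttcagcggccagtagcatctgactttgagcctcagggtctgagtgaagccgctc

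Each target is an interval, usually of 100 nt, at an end of an intron, and carries a whole-number score that is never negative; the sources used here do not state what it measures. Members averaged 14.28 ± 23.3 (SD between the 2483 targets, median 3) and all targets of the list averaged 6.80 ± 15.2 (median 1). Scores of members ran from 0 to 124, and the highest score of the whole list lay close to that upper end. Whether higher scores were cut off or left out of the list was not tested. High means and differences given below are therefore read only within this range. The score was above 0 in 69.1% of members and in 52.8% of all targets. It reached 19, the 90th percentile of the list, in 24.1% of members and in 10.4% of all targets. Because the segments were picked on this score, those shares describe the choice and nothing further is read from them.

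Both segments were split at the break positions of the selection rule. The fusion side is the part kept in the fusion gene and what lies beyond it, which is left of 23.63 Mb on chromosome 22 and right of 133.607 Mb on chromosome 9. The far side is the remainder of each segment. On 22q11 the 1590 targets of the fusion side averaged 16.36 ± 25.5 (median 4) and the 428 of the far side averaged 7.18 ± 14.4 (median 1, SD between targets). On 9q34 the 309 targets of the fusion side averaged 17.26 ± 23.1 (median 7), against 6.69 ± 13.3 (median 0) over the 156 of the far side. The rest of chromosome 22 averaged 7.71 and the rest of chromosome 9 averaged 6.95, so the mean of each far side lay near that of its own chromosome. Medians and shares above 0 were lower on the far sides. On 9q34 the far side had 41.0% above 0, against 54.1% and a median of 1 on the rest of chromosome 9. On 22q11 the far side had 57.7% above 0, against 59.7% and a median of 2 on the rest of chromosome 22. Within 1 Mb of the break the difference on 22q11 was 3.53, against 9.17 over the whole segment. On 9q34 it was 2.08 without the ABL1 and NUP214 targets, against 10.6 with them.

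Neither fusion side was evenly high. On the fusion side of 22q11 the means of 26 windows of 250 kb ran from 0.176 to 42.1, and 17 exceeded the mean of all targets while 2 were below 1. The 5 far side windows ran from 0.822 to 14.9, and 2 exceeded it. On the fusion side of 9q34 the means of 12 windows of 50 kb with at least 5 targets ran from 0.361 to 43.2, with 8 above the mean of all targets and 2 below 1. The 6 far side windows ran from 0.0588 to 26.1, with 3 above it and 3 below 1. Among 2069 windows of 1 Mb with at least 50 targets in the whole list, those at 22 to 23 Mb and 19 to 20 Mb of chromosome 22 ranked 2 and 4, with means of 29.02 and 26.6. The neighbouring window at 18 to 19 Mb, also on the fusion side, ranked 987 with a mean of 4.83, and the window at 23 to 24 Mb, which holds BCR, ranked 1075 with 4.38.

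**Figure D1:**
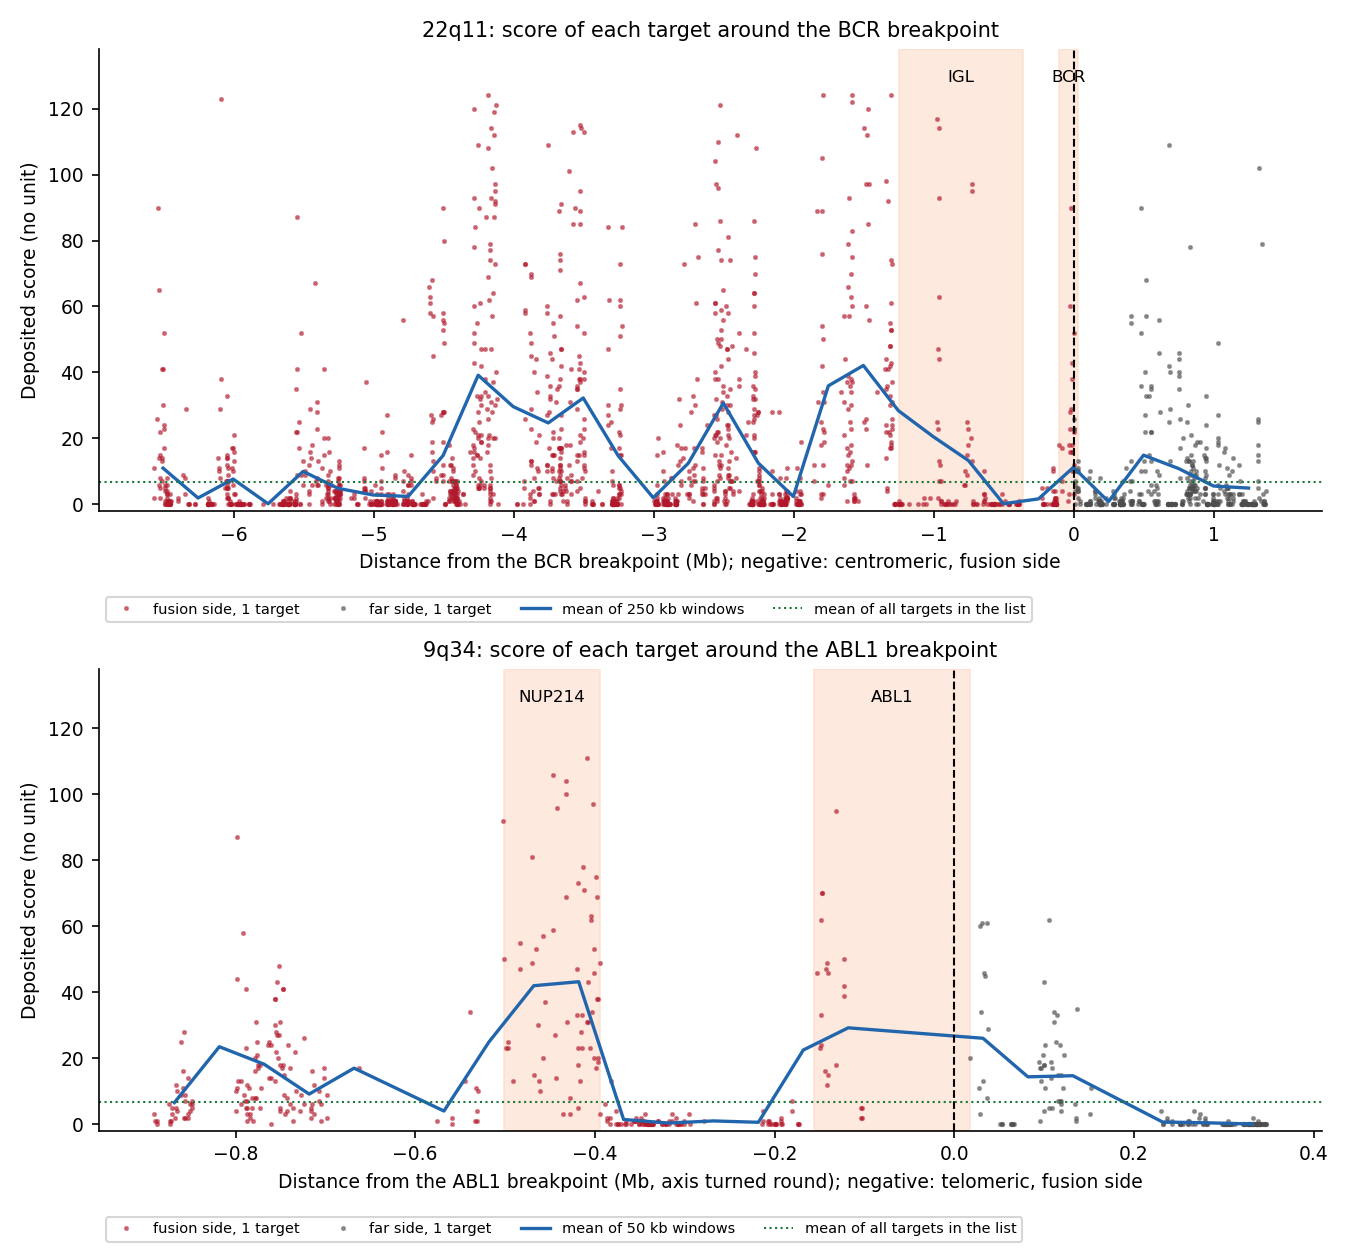
Deposited score (no unit) of each target against its distance from the break position (Mb), for 22q11 above and 9q34 below with its axis turned round, so that the fusion side lies left of the dashed line in both. Points are single targets, the blue line joins means of 250 kb or 50 kb windows, shaded bands are the sub-blocks, and the dotted line is the mean of all targets (6.80). High windows on the fusion side alternate with windows near 0.

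The outer borders of the segments do not share a step in 1 direction. In order of position, the last 3 targets before 22q11 had scores 0, 0 and 1, and the first 3 members had 11, 2 and 26. Before 9q34 the last 3 targets had 23, 5 and 11, and the first 3 members had 0 each. The nearest targets on either side of each start lie far apart. They are chr22:16419272-16419371 and chr22:17062178-17062277 on 22q11, and chr9:132995169-132995268 and chr9:133259923-133260071 on 9q34. At the end of 22q11 the last 3 members had 0, 0 and 4, and the next 3 targets outside had 0, 2 and 5. At the end of 9q34 the last 3 members had 1, 1 and 3, and the next 3 targets outside had 0, 4 and 5.

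Gene names were attached by length, since the gene annotation used here lies on another build. A gene was named where at least 3 neighbouring exon or intron lengths of an annotated transcript recurred exactly between target edges, at a spacing shared with at least 2 other genes. This named 109 genes. A further 80 genes with fewer lengths were named because they kept the spacing of a matched neighbour within 300 kb, and they are marked below as named by spacing. On 22q11 the genes named by lengths held 1059 of the 1590 fusion side targets and 267 of the 428 far side targets. On 9q34 they held 264 of 309 and 142 of 156. Genes named by spacing held a further 236 and 68 targets on 22q11, and 15 and 0 on 9q34.

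BCR, the 5′ partner, had higher scores in its first introns than in its last ones, described here on either side of intron 13, a place set after the values were seen. Of the 44 ends of its 22 introns, 35 were matched to targets. The 22 ends of introns before intron 13 ranged from 3 to 90 with a median of 22.5, and the 13 ends after it ranged from 0 to 13 with a median of 6. The means were 26.3 ± 20.2 before intron 13 and 6.85 ± 3.69 after it (SD between targets), a ratio of 3.84. Of the 22 earlier ends, 17 exceeded the highest later end, and the other 5 lay within the later range.

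Along the gene, the highest BCR targets were the 5′ end of intron 5 (90, chr22:23610704-23610803), the 5′ end of intron 4 (60, chr22:23603729-23603828) and the 3′ end of intron 9 (52, chr22:23627120-23627219). The last targets before intron 13 were those of intron 12, with score 10 at its 3′ end and 23 at its 5′ end. The next one in the list was the 3′ end of intron 14, with score 7. After it came intron 15, with 6 at its 3′ end and 0 at its 5′ end, and intron 22 closed the gene with 13 at its 3′ end and 4 at its 5′ end.

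No target was listed at either end of intron 13 or at the 5′ end of intron 14, the intron in which the join with ABL1 lies, and the running numbers of the list skip none there. The list therefore cannot place the change in level more closely than between intron 12 and the 3′ end of intron 14. The break position of the rule, 23.63 Mb, lies inside intron 11, so that the last 3 targets before it had scores 22, 12 and 23. The 3 targets after it, which belong to introns 11 and 12 and were counted on the far side, had 26, 23 and 10.

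ABL1, the 3′ partner, was high from the end of its first intron on. Of 20 intron ends, 18 were matched, and the 16 from intron 2 on averaged 43.8 ± 23.0 with a range of 12 to 95. Intron 1 had 39 at its 3′ end and 5 at its 5′ end. The highest targets were the 3′ end of intron 3 (95, chr9:133738050-133738149) followed by the 3′ end of intron 7 (chr9:133753702-133753801) and the 5′ end of intron 8 (chr9:133753956-133754055), both with 70. No ABL1 target had score 0.

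The break position of the rule lies in a stretch of 9q34 without targets. The nearest one on the fusion side (chr9:133709433-133709532) had score 2 and the next ones had 5 and 2. On the far side the nearest target, which is also the only one of the ABL1 sub-block there (chr9:133589844-133589943), had score 20. The targets beside the break thus do not step in the direction of the side means.

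NUP214 was the highest of the 4 sub-blocks. Its 62 targets averaged 42.1 ± 28.6 with a range of 3 to 111, and 79.0% reached 19. The highest were chr9:134016099-134016198 with 111, chr9:134053798-134053898 with 106 and chr9:134039344-134039447 with 104, the one with 106 lying outside the matched intron ends. The 23 targets of the ABL1 sub-block averaged 34.4 ± 24.9, the 41 of BCR 17.5 ± 17.9 and the 89 of the immunoglobulin lambda (IGL) sub-block 10.5 ± 25.3. Within NUP214 the 43 matched ends up to intron 28 averaged 48.5 ± 28.9 and the 11 of introns 29 to 35 averaged 43.0 ± 26.3. The target of intron 20, with 104, is counted at both ends of that intron. XKR3, the gene joined to NUP214 and named by spacing, had scores of 0, 3, 8, 9 and 29 in its 5 targets.

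**Figure D2:**
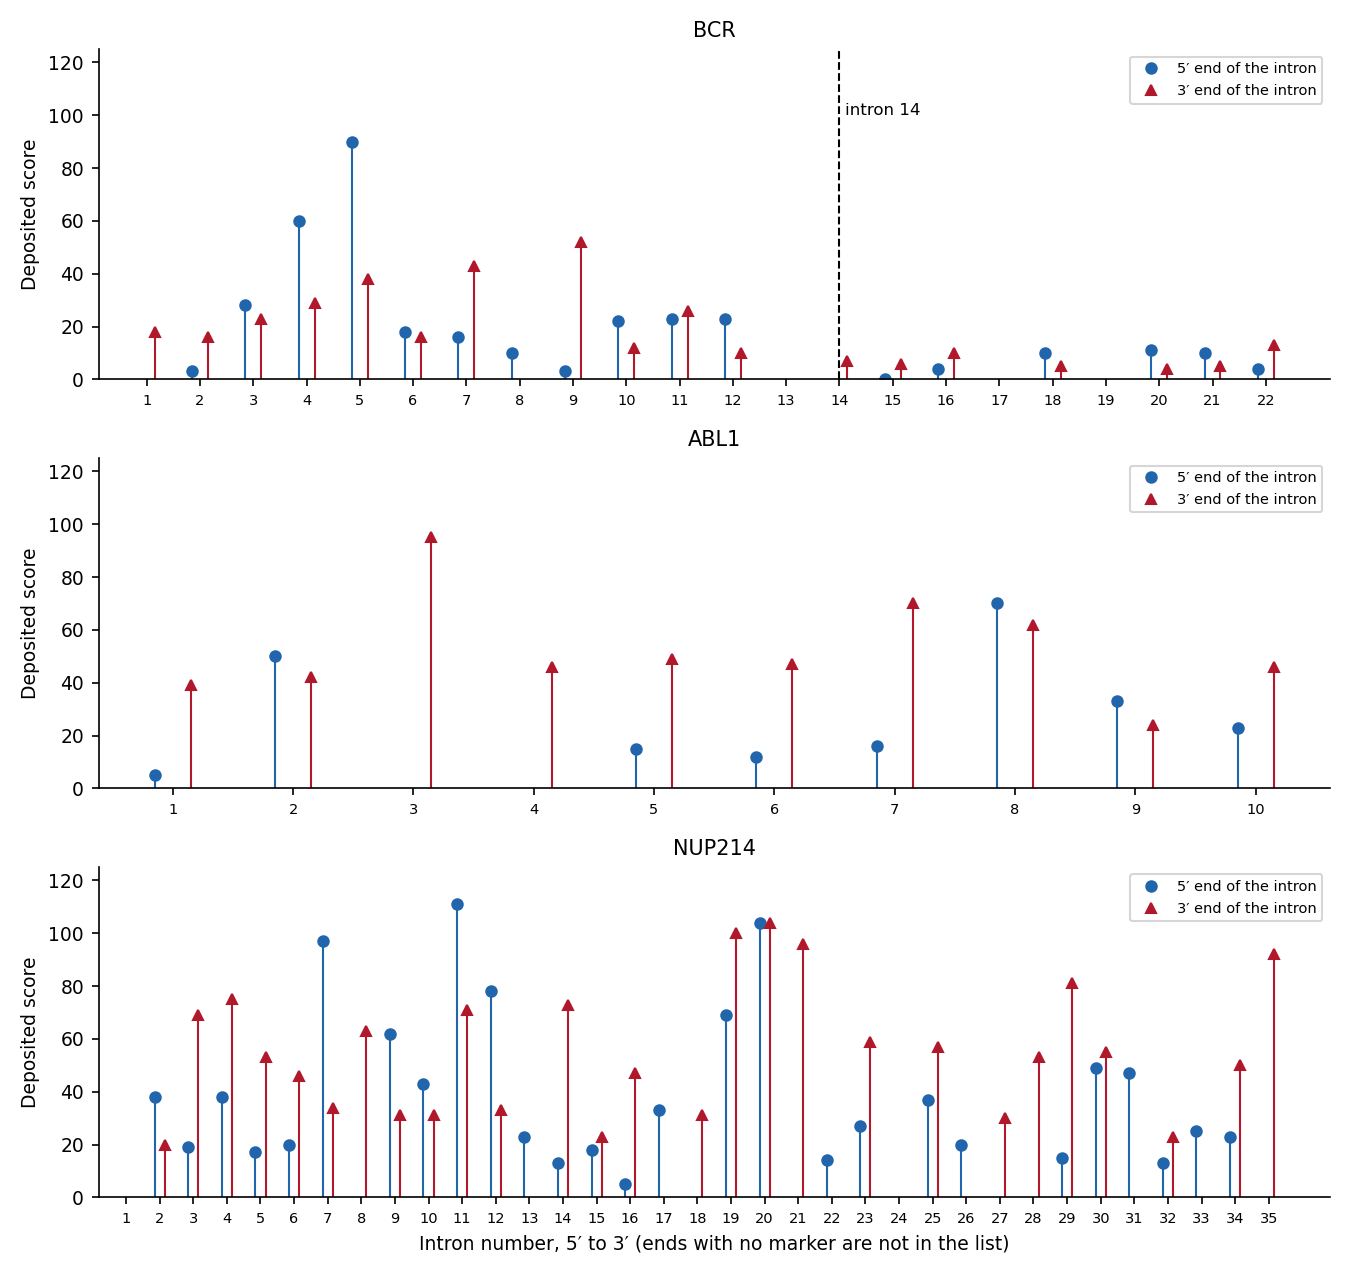
Deposited score (no unit) of each matched intron end of BCR, ABL1 and NUP214 by intron number, with 5′ ends as circles and 3′ ends as triangles. Each marker is a single target, and the dashed line marks BCR intron 14. BCR ends before intron 13 reach 90 and those after it stay at or below 13, while ABL1 ends run from 5 to 95 and NUP214 ends from 5 to 111.

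At the 2 ends of an intron the score was more often higher at the 3′ end, the end with the branchpoint. Over 715 introns of the segments with both ends matched, the 3′ end averaged 17.01 and the 5′ end 12.1. Introns of different transcripts can share a target, which 150 of the 715 did. The 3′ end was higher in 330 introns, the 5′ end in 193, and 192 were equal, of which 157 had 0 at both ends. The 3′ end was thus the higher in 63.1% of 523 introns that differed, and in 63.1% of 4845 on the rest of chromosomes 9 and 22. Over introns that share no target the shares were 60.5% of 410 in the segments and 63.8% of 3584 on the rest of the 2 chromosomes.

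Of 77 genes with at least 3 such introns, 47 had the higher mean at the 3′ end, 21 at the 5′ end and 9 were equal. Within the 1 transcript used above for each fusion gene, NUP214 had the higher score at the 3′ end in 14 of the 20 introns that differed. Its intron 20 has the same target at both ends and could not differ. ABL1 had the higher score at the 3′ end in 5 of 8 introns and BCR in 7 of 16. The BCR means were 19.3 at the 3′ ends and 20.3 at the 5′ ends.

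**Figure D3:**
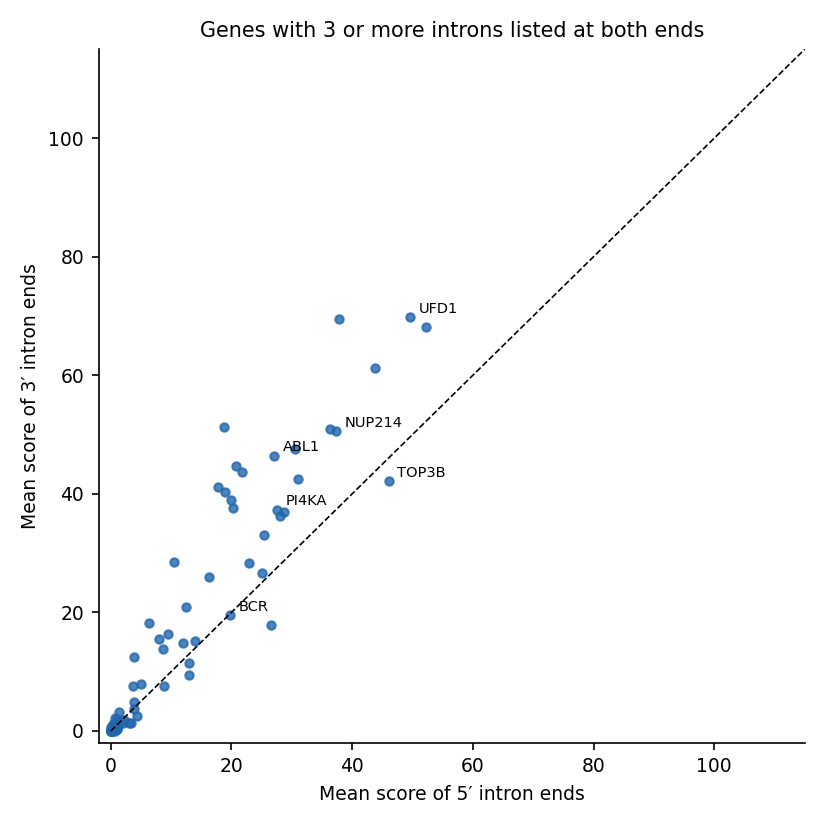
Mean score of the 3′ ends against mean score of the 5′ ends (no unit) for genes with at least 3 introns matched at both ends, 1 of the 77 not being drawn. Points above the diagonal have the higher mean at the 3′ end, which holds for 47 of the 77 genes.

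Named genes on the fusion side of 22q11 spanned the whole range. Of 71 genes named by lengths with at least 4 targets, 37 had a mean above 6.80, the mean of all targets. A mean below 1 was found in 21. On the far side 6 of 21 genes were above it and 11 below 1. On 9q34 the counts above it were 4 of 8 genes on the fusion side and 2 of 5 on the far side. On the rest of chromosomes 9 and 22, 32.5% of 957 genes were above it; since the score chose the segments, the counts are not read against that share. Differences between genes made up 52.5% of the sum of squares of the scores in the segments and 48.8% on the rest of the 2 chromosomes.

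Among the highest means on 22q11 were those of CDC45, a part of the replicative helicase, with 62.3 over 22 targets (3 to 119), and UFD1, a partner of the p97 unfoldase, with 59.8 over 14 targets (12 to 124). PI4KAP2, a copy of the lipid kinase gene PI4KA, followed with 49.2 over 13 targets, and how the score treats such copies is unknown. Next was AC245060.4, inside the IGL sub-block, with 48.4 over 7 targets. Several genes had 0 in every target, among them CECR3, IGLV3-21, CES5AP1, the glutathione transferase copies GSTT2B and GSTT2, SUSD2 and UPB1.

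Genes of the 22q11 deletion region, the interval lost in DiGeorge syndrome, held many of the high means. Of 44 listed genes 25 were named by lengths, with a median of the gene means of 30.0. Beside 32.5% of genes on the rest of chromosomes 9 and 22, 18 of the 25 had means above 6.80. They included ESS2, a spliceosome-associated protein gene (40.9), DGCR8, a subunit of the microRNA processor (36.5), PI4KA (35.3 over 77 targets), HIRA, a histone chaperone (33.8, with 38 of its 44 targets shared with C22orf39), and SNAP29, a membrane fusion protein (48.4). LZTR1, an adaptor for RAS degradation, had 41.3, and all its targets are shared with AC002470.2. The others above 6.80 ran from P2RX6 (8.73), GNB1L (15.1), ARVCF (22.3), TBX1, a developmental transcription factor (24.6), and ZDHHC8 (28.5) through TANGO2 (30.0), TXNRD2 (31.0), DGCR2 (33.3) and C22orf39 (34.8) to DGCR6L (45.7), beside UFD1 and CDC45. All 38 targets of C22orf39 are shared with HIRA, so both genes enter the count and the median above on largely the same targets. The 6 targets of HIRA alone averaged 27.7 with a median of 12.5.

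Low genes lay between them. PRODH, a proline-degrading enzyme, averaged 0.0769 over 13 targets, SCARF2, a scavenger receptor, 0.429 over 14, AIFM3 0.412 over 17 and SLC7A4 0.286 over 7. SERPIND1, which encodes a plasma thrombin inhibitor and lies within the span of PI4KA, averaged 2.0 over 7 targets. CLTCL1, a clathrin heavy chain gene, averaged 3.68 over 47 targets with none above 14. Among genes named by spacing, the adaptor gene CRKL, whose protein is a substrate of the BCR-ABL1 kinase, averaged 31.0 over 3 targets.

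Of 15 listed proximal genes of 22q11, 10 were named by lengths. With 32.5% of genes above 6.80 on the rest of chromosomes 9 and 22, 3 of the 10 exceeded it. These were BCL2L13 (17.3) and BID (12.2), both relatives of the apoptosis regulator BCL2, and the cytokine receptor gene IL17RA (8.09). ADA2, an adenosine deaminase, averaged 0.0556 over 18 targets, GAB4 0.167 over 18 and USP18, an interferon-induced protease, 0.75 over 20. SLC25A18 averaged 0.636 and TUBA8 0.833. PEX26, a peroxisome import gene, averaged 6.21 over 14 targets, of which 6 are shared with TUBA8, and 10.3 over its own 8. MICAL3 had 67 targets with a mean of 4.90.

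Neighbours of the IGL sub-block showed both extremes. Of 22 listed, 8 were named by lengths. Beside 32.5% of genes on the rest of chromosomes 9 and 22, 5 of the 8 exceeded 6.80. Among them were PPIL2, a cyclophilin found with the spliceosome (45.8 over 23 targets), TOP3B, a topoisomerase (41.9 over 22), PPM1F, a phosphatase (39.6 over 10), and CCDC116 (27.8 over 6). YPEL1, the next named gene after PPIL2, had scores of 1 to 3 in all 7 targets. RSPH14 (2.33) and RAB36 (0.765), which lie between the IGL sub-block and BCR on the fusion side, were low too.

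Of 28 listed genes distal of BCR, on the far side, 10 were named by lengths and 4 of these exceeded 6.80, beside 32.5% of genes on the rest of the 2 chromosomes. SMARCB1, a chromatin remodeller subunit, averaged 31.0 over 12 targets (4 to 68), GUCD1 13.9 and CABIN1, a calcineurin inhibitor, 10.5. RGL4 averaged 13.6 with a median of 1 over 9 targets. SUSD2 and UPB1 had 0 in all of 13 and 18 targets, GGT5 averaged 0.6 and SPECC1L, whose targets are shared with a read-through transcript, 5.32. CHCHD10, a mitochondrial protein gene named by spacing, averaged 59.3 over 3 targets, so high genes were also found past the break.

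On 9q34, 11 of 20 listed genes were named by lengths. Beside 32.5% of genes on the rest of chromosomes 9 and 22, 5 of the 11 exceeded 6.80. On the fusion side they were UCK1, a nucleoside kinase (26.3 over 7 targets), PRRC2B (16.0 over 57) and POMT1, a protein mannosyltransferase (13.9 over 26). On the far side they were EXOSC2, a subunit of the RNA exosome (33.6 over 9), and FUBP3 (18.4 over 31). LAMC3, a laminin gene between ABL1 and NUP214, averaged 0.48 over 50 targets, and FIBCD1, next to ABL1, 1.07 over 14. FAM78A, telomeric of NUP214, averaged 6.50. On the far side PRDM12 had 0 in all 8 targets, HMCN2 averaged 0.0597 over 67 and ASS1, an enzyme of arginine synthesis, 0.846 over 26.

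**Figure D4:**
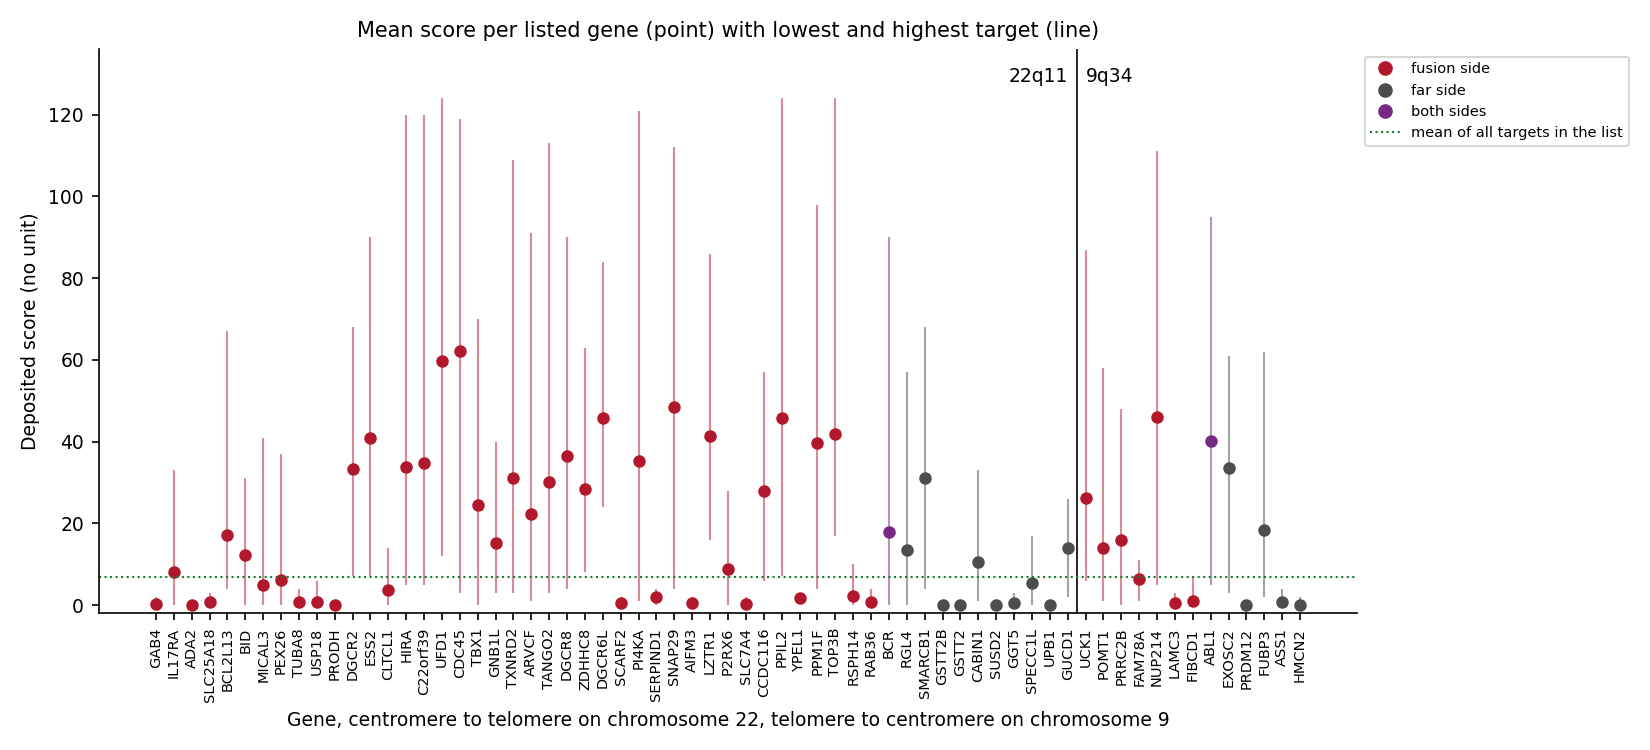
Mean score (point, no unit) with the lowest and highest target (line) for the listed genes named by lengths with at least 4 targets that are reported here, in order from the centromere on 22q11 and from the telomere on 9q34, so that the fusion side lies left in both. High genes such as CDC45 (62.3) and NUP214 (46.0) stand beside genes near 0 such as PRODH (0.0769) and LAMC3 (0.48), and the dotted line is the mean of all targets (6.80).

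The IGL sub-block, where antibody light chain segments lie, was split within itself. Of its 89 targets, 41 (46.1%) were above 0. The 30 targets that exceeded 100 nt by more than 1 nt averaged 0.6 and the other 59 averaged 15.6. One stretch (chr22:22648448-22786496) held 26 targets with a mean of 21.96 and a median of 1.5, of which 8 reached 19, among them the highest of the sub-block (117, chr22:22648885-22648984, in AC245060.2, named by spacing) and the next (114, chr22:22662962-22663061, in AC245060.4). A second one (chr22:22843792-22906071) held 15 targets with a mean of 22.5, a median of 13, a highest score of 97 (chr22:22898156-22898255) and no named gene. The stretch with the variable segments IGLV3-19, IGLV3-21 and IGLV3-22 (chr22:23010843-23114774) held 15 targets with a mean of 0.2.

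Target density was not used to choose the segments. It was 25.1 kb per Mb on 22q11 and 21.4 kb per Mb on the rest of chromosome 22, a ratio of 1.17. On 9q34 it was 30.9 kb per Mb, against 10.6 kb per Mb on the rest of chromosome 9, a ratio of 2.92. NUP214 was the densest sub-block with 57.1 kb per Mb, and IGL the sparsest with 10.8. Widths other than 100 nt were most common in IGL, where 33.7% of targets exceeded 100 nt by more than 1 nt, against 3.37% in the whole list.

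The running numbers of the list skip some values, and the share skipped was higher on 22q11 than in the list, but not on 9q34. On 22q11 it was 4.81% and on 9q34 0.853%. Between the first and last member of each segment together 106 of 2589 numbers (4.09%) were missing, against 4749 of 382607 (1.24%) in the list and 1.06% on the rest of chromosomes 9 and 22. On 22q11 the fusion side lacked 99 of 1689 numbers (5.86%) and the far side 3 of 431 (0.696%). On 9q34 the fusion side lacked 4 of 313 and the far side 0 of 156. The sub-blocks lacked 12 numbers (11.9%) in IGL, 2 of 64 in NUP214, 1 of 24 in ABL1 and 0 of 41 in BCR.

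Members beside a skipped number had the higher scores on average. The 135 of them averaged 44.5 ± 34.5 (median 33) and the other 2348 members averaged 12.5 ± 21.3 (median 3). Of the 106 skipped numbers, 99 lay on the fusion side of 22q11, while the other members include both far sides. The same values are not given here for the rest of the list, so the contrast is not read as particular to the segments. The longest skip, of 6 numbers, lay between chr22 positions 19137536 and 19166035, just past the last target of GSC2, and its flanking members had scores of 0 and 18. The authors removed strongly transcribed regions from the design, per the labels' protocols, and whether the skipped numbers are such removals was not tested.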

How the data were processed

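The deposited target list gives, per interval, a chromosome, a position, a running number and a score, a whole number whose meaning the authors do not state. Per the labels' protocols, the authors targeted both ends of GENCODE 12 introns, leaving out exons, repeats and strongly transcribed regions. The submitters' processing notes name hg19, Bowtie2, TopHat2 and bedtools. Which of these made the list is not given in these sources.

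Members and gene lists were chosen with earlier results of these data known. The text names the fusion genes, the listed genes that could be matched, the 5 highest and 5 lowest gene means per region among genes with at least 4 targets, and the 3 highest targets per sub-block. Some genes that meet this rule are not reported here. Where the listed genes were many, they are given by counts with examples.

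GENCODE 29 lies on GRCh38. No coordinate was converted; only exon and intron lengths were compared, with the target edge at the 5′ intron end taken to lie 1 nt inside the intron. Beyond the rule of 3 lengths, matches found nearly as well at another place were dropped as copies. The spacing condition (within 2500 nt), that copy rule and naming by spacing were added after the values were seen. The matching was tested on simulated data, with no outcome given here, and the names were not checked against an hg19 annotation. A window of 1 Mb takes the targets that start in it. Counts and shares are a census without replicate error, and SDs are between targets. The 1 table column of scores served all results, computed with pandas 2.3.3 and numpy 2.4.6 in Python 3.11.15 and drawn with matplotlib 3.10.9.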

Additional observations from a re-analysis of the deposited data

Results flagged for a closer look

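Skipped running numbers are a field of the list outside the score comparisons. The IGL sub-block skipped 12 numbers and the segments together skipped 106, which are 11.9% and 4.09% of their numbers, against 1.24% in the whole list. They are singled out as a field that the score comparisons leave aside, and no control sample exists.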

How the results depend on the processing

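The fusion side had the higher score under every alternative run. Since the segments were chosen by this score, the runs describe the choice and are no support for a difference. On 22q11 the difference of means was 9.17, and it was 9.03 with 100 nt targets only, 8.21 and 8.89 with the split moved left and right by 0.1 Mb, 3.53 within 1 Mb of the split, 9.52 without IGL and 9.27 with the split after BCR intron 12, an alternative added after the values were seen. The difference of medians was 3 and of shares above 0 was 14.8 percentage points. On 9q34 the difference was 10.6, and it was 10.5 with 100 nt targets. It was 10.7 with the split moved left by 0.02 Mb and stayed 10.6 with it moved right by 0.02 Mb. The break lies in a stretch without targets, so the fusion side held 309 targets, 310 after the move left and 309 after the move right. The difference was 13.2 within 0.5 Mb, 7 for medians and 40.2 percentage points for shares above 0. In alternatives added later it was 33.5 with ABL1 and NUP214 alone on the fusion side and 2.08 without both, so these 2 sub-blocks carry most of it. With 100 nt targets the sub-block means were 18.3 for BCR, 17.6 for IGL, 35.1 for ABL1 and 42.4 for NUP214. The count of named genes was 121 with 2 lengths, 80 with 5, 116 with lengths within 1 nt and 189 with naming by spacing. Density by targets per Mb gave ratios of 1.17 and 2.93. The share of introns with the higher score at the 3′ end was 63.1%, and 60.5% over introns that share no target, also added later. Skipped shares did not move up to the next target outside. No paired analysis was possible because all samples are of 1 group and the scores are not given by library, and no library could be left out for the same reason. Names rest on lengths from a later annotation, and genes with copies (PI4KA, GGT2, USP18, GSTT2) are uncertain. The depth behind the score is unknown and limits what can be said of low values.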

Other observations

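Transcribed pseudogenes were found among the high and the low genes. CECR7 averaged 33.3 over 7 targets (8 to 123, median 14) and TPTEP1 24.7 over 18 targets (1 to 90, median 19.5). Both lie near the centromeric end of 22q11 on the fusion side. Low ones included PRAMENP (0.1 over 10 targets) and P2RX6P (1.67 over 6) on the same side. On the far side CES5AP1 had 0 in all 7 targets and ZDHHC8P1 averaged 2.86 over 7. The long non-coding gene LINC01664 averaged 0.167 over 6 targets and LINC01658, on the far side, 0.667 over 21. On the far side MIF-AS1, an RNA antisense to the cytokine gene MIF, averaged 34.8 over 4 targets (9 to 56), and the list, whose strand sign is always plus, does not part the strands.

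Copies of PI4KA had similar levels, with 33.8 over 16 targets for PI4KAP1 and 49.2 over 13 for PI4KAP2, beside 35.3 over 77 for PI4KA itself. The copy pairs GGT2 and GGT3P averaged 2.08 and 1.28, and USP41 and USP18 averaged 0.765 and 0.75. How the score treats such copies is unknown, so these values are uncertain.

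In matched genes of 9q34, the edge of a target at the 5′ end of an intron lay 1 nt inside the intron on both strands. With that edge moved by 1 nt, the transcripts of 15 genes of 9q34 (11 on the plus strand and 4 on the minus strand) matched at 1 common spacing. With the left edge moved on both strands the same number of genes matched at 2 spacings, 1 for each strand, and with no edge moved 2 genes matched.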
